A study of Mus musculus with 6 samples.

Results

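Assembled transcripts were defined as the entries of the transcript table whose identifier is not an Ensembl one, and they made up 11474 of its 92513 transcripts. The other 81039 carried Ensembl identifiers. The table gives FPKM, which is fragments scaled to transcript length and to the mapped fragments of the library, for 6 RNA-seq libraries of C2C12, a myoblast line grown from satellite cells of C3H mouse thigh muscle. The tested cells were C2C12 Myod1-/- cells (3 libraries), in which CRISPR/Cas9 with a guide to the first exon of Myod1 had been used, and they were compared with C2C12 WT cells (3 libraries). Cells of both genotypes had been kept for 6 days in Ndiff227, a medium without serum. The knockout cells came from a single selected clone, so a difference between genotypes cannot be told apart from a difference between that clone and the parental line. In serum-free medium the study reports myotube-like structures from wild-type cells and floating spheres from knockout cells. A difference between genotypes cannot be told apart from a difference between these cell states either. Nothing in the sources says that the libraries of a genotype came from separate cultures, and the p-values then measure only the spread between these libraries, which may be technical.

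The table left every annotation of the assembled transcripts blank. Of the 11474, 0 had an entry for gene, symbol, description or position. They therefore could not be divided into new isoforms of known genes and transcripts of other loci, and no gene name, function, sequence or position is given for any of them here. Their identifiers hold a locus number and a transcript number, so that MERGE.16311.4 is transcript 4 of locus MERGE.16311. Transcripts that share a locus number are called members of that locus, and the sources do not say what the unlisted transcript numbers stand for.

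Myod1 encodes a basic helix-loop-helix transcription factor that switches on muscle genes and, with Myog, drives myoblasts towards fusion and contractile protein synthesis. A transcript assembler such as StringTie builds transcripts from overlapping spliced reads, so that a table made with it can hold RNA structures that an annotation lacks. Where several such structures overlap, the reads are divided among them by estimation. The level of 1 structure can then trade against that of another while their sum stays the same.

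The libraries followed their labels at the targeted gene. Myod1 had 0.0614, 0 and 0 FPKM in the C2C12 Myod1-/- libraries, against 17.3, 25.8 and 27.7 FPKM in the C2C12 WT libraries, in the gene table. Muscle markers were present in C2C12 WT and near 0 in C2C12 Myod1-/-, where Myog, the myogenic factor downstream of Myod1, had 0.0669, 0 and 0 FPKM against 198, 206 and 192 FPKM in C2C12 WT. The exception was Des, the muscle intermediate filament gene, with 14.6, 14.9 and 14.0 FPKM in C2C12 Myod1-/- and 261, 329 and 331 FPKM in C2C12 WT. Of 7 markers of leukocytes, endothelium and epithelium found in the table, 5 stayed under 0.5 FPKM in every library, and the 7 summed to between 27.6 and 29.5 FPKM in C2C12 Myod1-/- and between 7.57 and 9.42 FPKM in C2C12 WT. Cd68, a lysosomal protein gene used as a macrophage marker, carried most of that sum. Lyz2, a lysozyme gene, had 1.35, 1.23 and 0.986 FPKM in C2C12 Myod1-/- and 1.91, 1.90 and 1.51 FPKM in C2C12 WT, and Csf1r, a receptor gene of macrophages, had 0.213 to 0.226 FPKM in C2C12 Myod1-/- and 0.206 to 0.244 FPKM in C2C12 WT. The defining leukocyte gene Ptprc did not exceed 0.0218 FPKM in C2C12 Myod1-/- or 0.0183 FPKM in C2C12 WT. The part of these markers in the results was not tested. FPKM tables hold no counts, and the depth of the libraries relative to C2C12 WT replicate 1, read from the steps between low values, was 1.04 to 1.09 in C2C12 Myod1-/- and 1 to 1.13 in C2C12 WT.

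The assembled transcripts were spread over 6629 loci. A single member was listed for 4317 loci, 2 members for 1197 and 3 or more for 1115, and the locus with the most had 31. In 3842 loci (58.0%) at least 1 lower transcript number was not listed. In 2385 loci transcript 1 was the only number listed. The assembled transcripts had a median mean level of 1.88 FPKM over the 6 libraries, with quartiles of 0.877 and 4.31 FPKM, whereas the Ensembl transcripts had a median of 0.266 FPKM. An assembled transcript is listed only where reads built it. The Ensembl entries included 49820 that averaged under 0.5 FPKM, against 1477 of the assembled transcripts, so these medians compare unlike sets. Of the assembled transcripts 1066 averaged at least 10 FPKM and 35 at least 100 FPKM, and of the Ensembl transcripts 5361 and 474 did. Those that averaged at least 0.5 FPKM numbered 9997 assembled and 31219 Ensembl transcripts. Of all 11474 assembled transcripts, between 9731 and 9844 were above 0 FPKM in each C2C12 Myod1-/- library. In each C2C12 WT library between 9660 and 9812 were.

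Assembled transcripts held a larger share of all transcript FPKM in C2C12 Myod1-/- cells. The share was 16.0%, 14.8% and 16.3% in the C2C12 Myod1-/- libraries and 12.2%, 12.3% and 11.9% in the C2C12 WT libraries. The means were 15.7% ± 0.781 in C2C12 Myod1-/- and 12.1% ± 0.218 in C2C12 WT (SD, n = 3 each), a difference of 3.58 percentage points, and the genotypes did not overlap. In bulk RNA, fewer cells that make a transcript and less of it per cell cannot be told apart. The two-sided exact permutation test gave p = 0.1, the smallest value that 3 libraries against 3 allow, so the design could not reach 0.05. A single locus made up much of this difference. Without MERGE.16311, a comparison added after its values were seen, the share was 14.2%, 13.5% and 14.4% in C2C12 Myod1-/- and between 11.6% and 12.1% in C2C12 WT, and the difference was 2.12 percentage points (exact permutation p = 0.1).

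**Figure D1:**
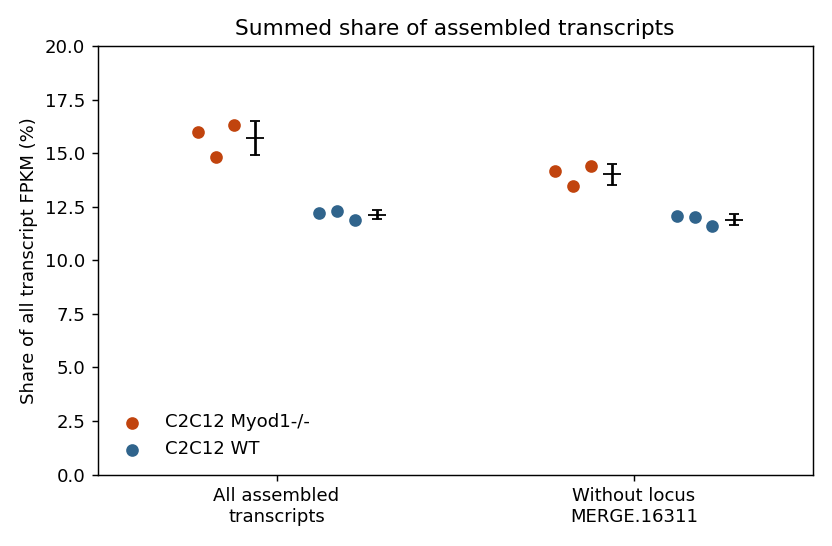
Share of all transcript FPKM (%, axis from 0) held by assembled transcripts, with a point for each library and a dash with bars for the mean and SD of 3 libraries, C2C12 Myod1-/- left of C2C12 WT. The knockout libraries lie above the wild-type libraries with all assembled transcripts (14.8% to 16.3% against 11.9% to 12.3%) and by less without locus MERGE.16311.

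The assembled FPKM was concentrated in few loci. The 10 highest loci of a library held 20.6%, 16.4% and 19.9% of it in C2C12 Myod1-/- and 11.4%, 14.1% and 12.3% in C2C12 WT. Locus MERGE.16311 was the highest in each C2C12 Myod1-/- library, with a summed level of 8896, 6456 and 9271 FPKM against 680, 1446 and 1381 FPKM in C2C12 WT. In C2C12 WT, MERGE.16311 was the highest in replicate 3, and MERGE.17177 was the highest in replicates 1 and 2. The next locus in the knockout libraries reached only 611 to 929 FPKM.

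Locus MERGE.16311 had 3 members, and all of them rose in C2C12 Myod1-/- cells. Transcript 3 had 5751, 4233 and 5904 FPKM in C2C12 Myod1-/- and 583, 1255 and 1189 FPKM in C2C12 WT, which is 2.46 ± 0.33 on the log2 scale (SE; limma, adjusted p = 0.00569). Transcript 5 had 953, 736 and 969 FPKM in C2C12 Myod1-/- and 97.0, 191 and 192 FPKM in C2C12 WT, a log2 difference of 2.53 ± 0.30 (limma, adjusted p = 0.00362). Transcript 4 behaved differently from the other two in C2C12 WT, where it was almost absent. It had 2191, 1487 and 2398 FPKM in C2C12 Myod1-/- against 0.176, 0.174 and 0.119 FPKM in C2C12 WT, a log2 difference of 12.93 ± 0.21 (limma, adjusted p = 9.6e-06). This was the largest rise among called assembled transcripts that averaged at least 5 FPKM and did not overlap between genotypes, and its size depends on the pseudocount, being 13.56 with 0.01 and 10.75 with 1. Within the FPKM of the locus, transcript 4 made up 24.6%, 23.04% and 25.9% in C2C12 Myod1-/- and at most 0.0258% in C2C12 WT, while transcript 3 made up 63.7% to 65.6% in C2C12 Myod1-/- and 85.7% to 86.8% in C2C12 WT.

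Across all assembled transcripts, more were higher than lower in C2C12 Myod1-/-. Each transcript that averaged at least 0.5 FPKM was tested with limma on log2(FPKM + 0.1), in 1 fit over all 41216 transcripts that passed, and called at an adjusted p below 0.05. Of the 11474 assembled transcripts 9997 passed that filter, and a transcript that passed only through the genotype in which it was high had to differ. Of the 9997, 2015 were called (20.2%), where 18.9% of all transcripts tested and 18.5% of the Ensembl transcripts were called. The share called was therefore near that of the table as a whole. The directions were less even. Of the assembled transcripts 1353 rose (13.5%) and 662 fell (6.62%), where 9.57% of all transcripts tested rose and 9.30% fell, and of the Ensembl transcripts 2591 rose (8.30%) and 3171 fell (10.2%). The median log2 fold change was 0.19 over the assembled transcripts tested and 0.06 over all transcripts tested. This contrast of the kinds of transcript is a description, since transcripts are not replicates and members of a locus share reads. Fold changes on the log2(FPKM + 0.1) scale understate the change of low transcripts.

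Rises outnumbered falls at each level below 100 FPKM. Among assembled transcripts that averaged 0.5 to 1 FPKM, 11.6% rose and 5.36% fell, and among those of 10 to 100 FPKM 20.9% rose and 10.7% fell. Of Ensembl transcripts of 0.5 to 1 FPKM 3.97% rose and 4.34% fell. Those of 10 to 100 FPKM went the other way from the assembled ones, with 15.4% that rose and 21.0% that fell. In both directions together, 16.9% of assembled and 8.31% of Ensembl transcripts of 0.5 to 1 FPKM were called. At 10 to 100 FPKM the order was reversed, with 31.5% of assembled and 36.4% of Ensembl transcripts called. Of the 35 assembled transcripts at 100 FPKM or more, 8 rose and 8 fell (22.9% each), and of the 474 Ensembl transcripts at that level 90 rose (18.99%) and 188 fell (39.7%).

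**Figure D2:**
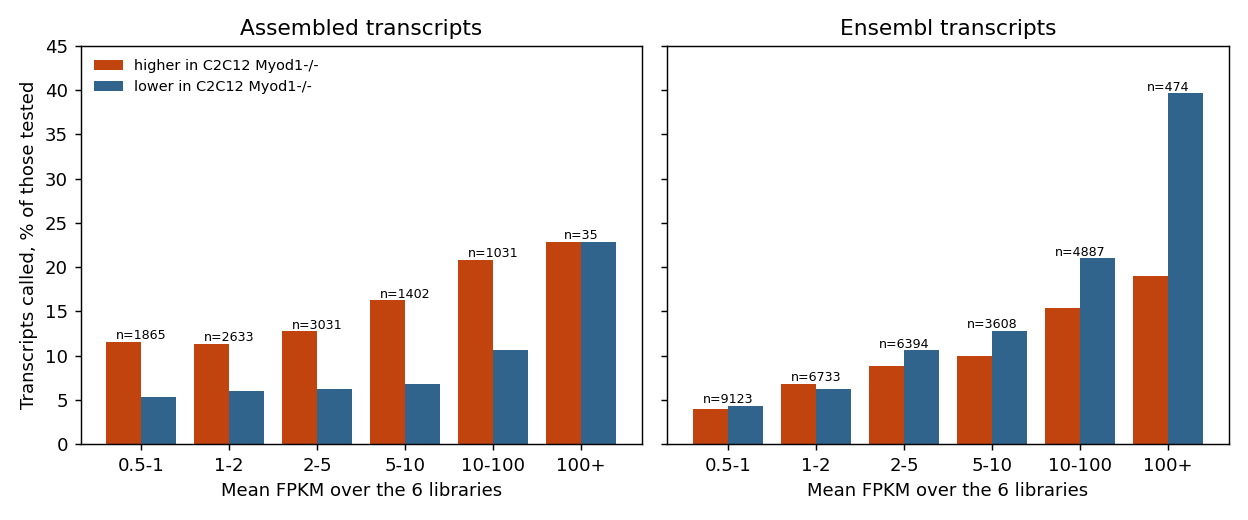
Percentage of tested transcripts called higher (left bar) or lower (right bar) in C2C12 Myod1-/- than in C2C12 WT, by mean FPKM, for assembled and Ensembl transcripts, with the number tested above each pair. Rises outnumber falls among assembled transcripts below 100 FPKM (20.9% against 10.7% at 10 to 100 FPKM), and falls outnumber rises among Ensembl transcripts from 2 FPKM upwards.

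Without a model, 2357 of the 9997 assembled transcripts had all 3 C2C12 Myod1-/- values above all 3 C2C12 WT values (23.6%, where 20.8% of all transcripts tested did) and 1403 had all of them below (14%, where 18.2% did). Of the Ensembl transcripts 19.9% lay above and 19.5% below. Among calls that rose the median log2 fold change was 2.24, and among those that fell it was -2.13, beside medians of 1.60 and -1.41 over all transcripts called. For Ensembl transcripts alone they were 1.34 and -1.31. These medians cover calls only, and a transcript that varies more between libraries, as assembled ones did (below), needs a larger change to be called. Some assembled transcripts were listed above 0 FPKM in 1 genotype only. Of the 9997, 147 were above 0 FPKM in every C2C12 Myod1-/- library and at 0 in every C2C12 WT library (1.47%), and 149 had the reverse pattern (1.49%). Among the 31219 Ensembl transcripts tested the counts were 71 (0.227%) and 205 (0.657%). All of these passed the filter only through the genotype in which they were above 0, so they had to differ. A listed 0 need not mean absence. Of assembled transcripts reaching 5 FPKM in a library, 13.7% in C2C12 Myod1-/- and 14.8% in C2C12 WT were at 0 in another of that genotype. For Ensembl transcripts these shares were 3.77% and 3.76%.

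Of 2468 assembled transcripts that averaged at least 5 FPKM, 451 were called higher in C2C12 Myod1-/- with no overlap (18.3%, where 14.5% of all transcripts and 13.4% of Ensembl transcripts at that level were) and 214 were called lower (8.67%, where 16.5% of all transcripts and 18.7% of Ensembl transcripts were). As the identifiers carry no gene, only the 2 with the largest log2 change in each direction are named. After MERGE.16311.4, the largest rise was that of MERGE.14152.1, the only listed member of its locus. It had 115, 119 and 112 FPKM in C2C12 Myod1-/- and 0, 0.507 and 0 FPKM in C2C12 WT, a log2 difference of 9.30 ± 0.75 (limma, adjusted p = 0.000909). The 3 knockout values lay close together and far above the wild-type values, and the log2 difference was 11.60 with a pseudocount of 0.01 and 6.66 with 1. The 2 largest falls were of transcripts listed at 0 in all C2C12 Myod1-/- libraries, for which no fold is given. MERGE.974.2 was listed at 0, 0 and 0 FPKM in C2C12 Myod1-/- and had 202, 190 and 191 FPKM in C2C12 WT (adjusted p = 6.3e-06 from limma). The other listed member of that locus was also at 0 in C2C12 Myod1-/-, and the locus sum was 202, 207 and 206 FPKM in C2C12 WT.

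The call of MERGE.14886.3 was lost when its locus was summed. The transcript was listed at 0, 0 and 0 FPKM in C2C12 Myod1-/- and had 717, 818 and 228 FPKM in C2C12 WT (adjusted p = 0.0001 from limma). The locus sum, however, was 0, 0 and 271 FPKM in C2C12 Myod1-/- against 717, 818 and 228 FPKM in C2C12 WT, because a second member was high in the third knockout library. The genotypes overlapped in that library. The sum differed by -8.52 ± 3.27 on the log2 scale (SE; limma, unadjusted p = 0.0437) and was not called after adjustment (limma, adjusted p = 0.136). Because knockout sums of 0 enter it, the size of this difference depends on the pseudocount of 0.1.

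**Figure D3:**
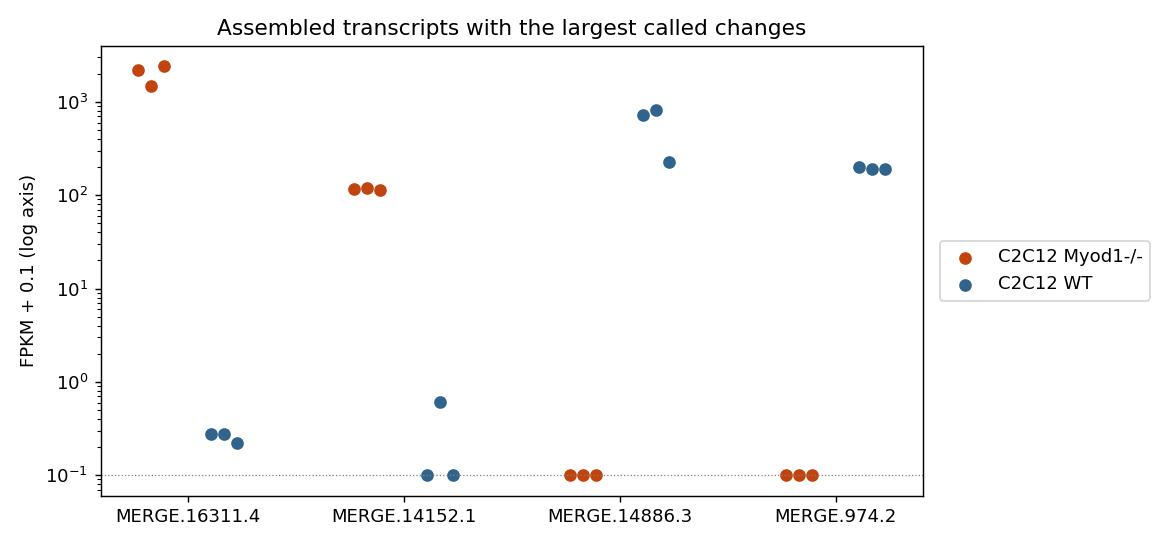
FPKM + 0.1 (log axis) of the assembled transcripts with the 2 largest called rises and the 2 largest called falls, with a point for each library, C2C12 Myod1-/- left of C2C12 WT, and a dotted line where 0 FPKM lies. The genotypes do not overlap in any of the 4, and all 3 knockout points of MERGE.14886.3 and MERGE.974.2 lie at 0 FPKM.

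Assembled transcripts varied more between libraries of a genotype than Ensembl transcripts. Among transcripts that averaged at least 5 FPKM in a genotype, the median coefficient of variation over its 3 libraries was 22.3% for assembled and 10.1% for Ensembl transcripts in C2C12 Myod1-/-, and 24.0% for assembled and 12.03% for Ensembl transcripts in C2C12 WT. Across the transcripts tested, Pearson's r between libraries of a genotype was 0.583 to 0.625 over the 9997 assembled transcripts and 0.804 to 0.822 over the 31219 Ensembl transcripts. These are descriptions across transcripts, which are not independent.

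Many assembled transcripts were listed at 0 in 1 library and were well above 0 in another of the same genotype. Of 3756 that reached 5 FPKM in at least 1 C2C12 Myod1-/- library, 514 (13.7%) were at 0 in another, and of 3304 in C2C12 WT 490 (14.8%) were. For Ensembl transcripts the shares were 3.77% of 10382 in C2C12 Myod1-/- and 3.76% of 10696 in C2C12 WT. In loci with 2 or more members the share was 15.7% in C2C12 Myod1-/- and 17.1% in C2C12 WT for single transcripts, but 1.51% in C2C12 Myod1-/- and 1.85% in C2C12 WT once the members of each locus were summed. Summing Ensembl transcripts by gene lowered their share likewise, to 0.304% in C2C12 Myod1-/- and 0.245% in C2C12 WT. A sum over members reaches 0 only when all members do. In loci with a single listed member 9.80% in C2C12 Myod1-/- and 10.7% in C2C12 WT were at 0 in another library.

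**Figure D4:**
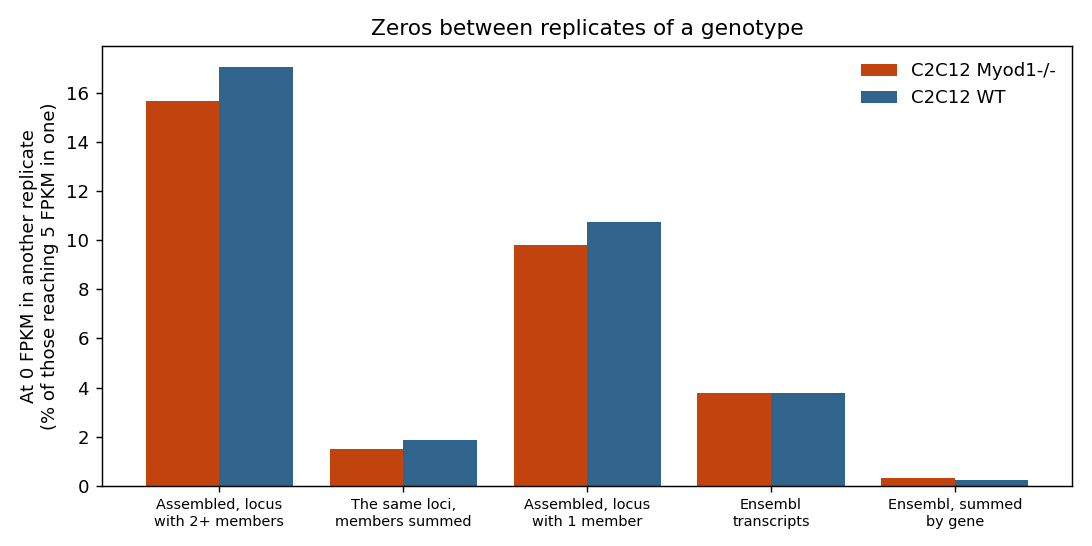
Percentage of transcripts, or of sums, reaching 5 FPKM in a library that were at 0 FPKM in another library of the same genotype, with C2C12 Myod1-/- left of C2C12 WT and bars starting at 0. The share was 15.7% and 17.1% for members of loci with 2 or more members, and 1.51% and 1.85% after summing over the locus.

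The locus whose sum fell most had 2 listed members, both at 0 in all C2C12 Myod1-/- libraries. In C2C12 WT the first member had 0, 0 and 905 FPKM and the second 944, 999 and 0 FPKM, so that the sum was 944, 999 and 905 FPKM. Whether reads were traded between the members was not tested. Neither member was called (adjusted p = 0.487 and 0.181 from limma), while the sum was (adjusted p = 1.7e-06 from limma). Another 216 loci, counted after the data were seen, had at least 5 FPKM in every library and a member that was at 0 in 1 library and at 5 FPKM or more in another of its genotype. In 91 of these (42.1%) the coefficient of variation of the sum was below 20% in both genotypes, as it was in 406 of 647 loci (62.8%) at that level with 2 or more members and no such member.

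With the members summed by locus, a comparison added after seeing the data, 1754 of 6213 loci tested were called (28.2%), beside 21% of all sums and Ensembl transcripts in that fit. Of the loci 1163 rose (18.7%) and 591 fell (9.51%). The background in that fit was 10.5% that rose and 10.4% that fell. Only the assembled transcripts were summed in that fit, and the Ensembl transcripts entered it singly. In loci with 2 or more members, sums varied less between libraries of a genotype than single members did, in both genotypes. Sums were also less often at 0. The loci and their background are therefore unlike units, and the part of summing in the larger share called was not tested. At least 2 members were called in 211 loci. All called members rose in 130 of these and all fell in 60, and 21 had calls in both directions (9.95%). Of 782 Ensembl genes with at least 2 called transcripts, 84 had calls in both directions (10.7%), a share near that of the loci.

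The division of FPKM among the members of a locus was called different for few transcripts. In a comparison also added after the data were seen, each transcript was set against the other assembled members of its locus, where each genotype had a locus total of at least 1 FPKM. Of 5598 transcripts in 2031 loci 90 were called by limma (1.61%), beside 251 of 26601 Ensembl transcripts set against the others of their gene (0.944%). The 90 lay in 63 loci and had a larger share in C2C12 Myod1-/- for 40 and a smaller one for 50. In a locus with 2 listed members, both tested, the 2 values mirror each other. Such members are called together and in opposite directions, so these directions are not independent. An unadjusted p below 0.05 was reached by 657. The count was not stable. It was 14, 52 and 27 without C2C12 Myod1-/- replicate 1, 2 or 3 and 78, 39 and 38 without C2C12 WT replicate 1, 2 or 3. A fit with fewer libraries also has less power, so these counts do not show that the calls rested on single libraries. The count was 107 with a pseudocount of 0.01, 45 with a pseudocount of 1 and 0 with the replicate number as a block. MERGE.16311.4 was among the 90, with a log2 change of 10.46 ± 0.61 against the rest of its locus (SE, adjusted p = 0.0049 from limma). As any Ensembl transcripts of these loci are not identified in the table, these are shares of the assembled FPKM of a locus and not of a gene.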

How the data were processed

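Total RNA of 6 libraries had been depleted of rRNA and sequenced. Per the labels and the study's methods, the authors aligned reads (HISAT2 or TopHat, GRCm38). StringTie then built and quantified the transcripts, and the authors deposited FPKM values for genes and transcripts, without counts. The versions are not given in the sources used here. The strand setting is not given either. Of the 81039 Ensembl transcripts, 99.8% were found in GENCODE M21 (GRCm38). The column names of the deposited tables do not match the sample titles by themselves. They were tied to the samples through a supplementary table of the study whose headings name the genotype and replicate, where 3192 of 3192 genes found by symbol had the same 6 FPKM values within a relative tolerance of 0.001. That link rests on values, and the level of Myod1 was then compared with it.

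Transcripts averaging at least 0.5 FPKM were fitted with limma 3.58.1 (R 4.3.3; lmFit, eBayes with trend) on log2(FPKM + 0.1) with genotype alone, and p-values were adjusted by Benjamini-Hochberg over all 41216 transcripts. The fit was tested on simulated data. Exact permutation tests used scipy 1.17.1. Transcripts named were the 2 largest changes in each direction among calls averaging at least 5 FPKM with no overlap. A longer naming rule, a test of new-isoform share of gene output with its alternatives, shares weighted by length, pathway lists and sequence features had been planned, and these were not run because the assembled transcripts carry no gene, position or length. The members and lists were chosen with earlier results of these data known. Alternatives covered pseudocounts, filters, quantile normalization, each library left out and a replicate block.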

Additional observations from a re-analysis of the deposited data

How the results depend on the processing

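Leaving out each library in turn gave 1575 to 1853 called assembled transcripts, of which 1030 to 1240 rose and 531 to 613 fell, beside 2015, 1353 and 662 with all libraries. A filter at a mean of 2 FPKM left 5499 assembled transcripts and called 1330 (890 rose, 440 fell). Pseudocounts of 0.01 and 1, no filter, quantile normalization and leaving out transcripts that were at 0 and at 5 FPKM or more within a genotype kept the counts within 1.5 times those of the main analysis. Summing by locus counts loci, 1754 of 6213, and is not comparable with a count of transcripts. The 4 named transcripts kept direction and call in each alternative run on them. The difference in summed share was 3.28 to 4.02 percentage points with a library left out and 2.12 without locus MERGE.16311. The within-locus count of 90 was 107 with a pseudocount of 0.01, 45 with a pseudocount of 1, and 14 to 78 with a library left out.

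The sources do not say whether the replicate numbers pair the samples. Same-numbered libraries had correlations of deviations of -0.0174, -0.0102 and 0.0152, and libraries of unlike number had -0.0266 to 0.0353. With the replicate number as a block, 1130 assembled transcripts were called (781 rose, 349 fell) and 0 were called within loci. The alternatives for the new-isoform share of gene output and the shares weighted by length were not run, because the table gives no gene or length for these transcripts. The lack of counts leaves the precision of single low values unknown.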
